A study of Pan troglodytes with 8 samples.

Results

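Chromatin accessibility was examined at the genes of neuropeptides, of their receptors and of 1 binding protein in chimpanzee cerebral organoids. The list held 60 genes, of which 21 encode peptide precursors, 1 a binding protein and 38 receptors. Members were all regions of the deposited count table whose closest gene was on the list, at any distance. They numbered 278 of 211348 regions and belonged to 59 of 41376 genes, and OXT, the oxytocin precursor, had no region. The assay was bulk ATAC-seq, which reads where a transposase can cut open chromatin. The cells were sorted from cerebral organoids, spheres of brain-like tissue, made from SandraA, an induced pluripotent stem cell line, and taken at week 8 of culture, give or take 3 days. The sort gave BCL11B+ neurons (N), basal intermediate progenitors (bIP), and radial glia of apical (aRG) and of basal position (bRG), with 2 libraries for each of these 4 populations. All libraries came from this 1 line with no treatment or genotype difference between them, and the labels do not say whether libraries 1 and 2 were separate cultures. The p-values therefore measure only the spread between these libraries, which may be technical.

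Neuropeptides are cut from larger precursor proteins in the secretory pathway, stored in dense-core granules and released on stimulation. They act mostly on G protein-coupled receptors, while the natriuretic peptides act on membrane guanylate cyclases and a clearance receptor. In the mature cortex, SST, VIP, NPY and TAC1 are best known from inhibitory neurons, whereas CCK and ADCYAP1 are also used by excitatory neurons. Radial glia are the stem cells of the developing cortex, and they give rise to intermediate progenitors and neurons.

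The 8 libraries held between 24913928 and 34845193 counts. The sort was checked against marker loci, where a locus is the sum of all regions that lie within 50 kb of a gene and have it as closest gene. All 7 radial glia loci were lower in bIP than in aRG and lower again in N, and 7 of 8 neuron loci were higher in bIP and in N than in aRG. The exception was BCL11B, the gene named in the label of the N sort. It measured 77.7 and 68.4 CPM (counts scaled to a fixed library total) in aRG, 91.9 and 87.5 in bIP and 65.0 and 55.8 in N. BCL11B was lower in N than in bIP (adjusted p = 0.0045, edgeR), and so were TBR1 and RBFOX3. Between N and bIP, 3 of the 8 neuron loci were thus called lower in N and 2, NEUROD2 and MAPT, higher. Of 5 bIP marker loci, EOMES and PPP1R17 were called higher in bIP than in aRG and 3 were not called. Those not called were NEUROG1, NEUROG2 and PENK, and PENK is also 1 of the 60 genes on the list. NEUROG2 measured 5.59 and 10.7 CPM in aRG and 3.15 and 4.5 in bIP. The 8 loci of inhibitory neurons and ganglionic eminence, the ventral source of such neurons, summed to 282.3 to 329.4 CPM in aRG, 276.6 to 280.7 in bRG, 230.5 to 231.9 in bIP and 151.1 to 165.3 in N. Of these 8 loci, 5 were lower in N than in aRG and none was higher. In bIP against aRG, 3 were lower and 1, GAD1, was higher. The 4 hypothalamus loci summed to 69.8 to 80.2 CPM in aRG and 36.0 to 42.4 in N. The 4 Cajal-Retzius loci summed to 65.1 to 74.8 CPM in aRG, 94.1 to 129.1 in bIP and 104.8 to 150.2 in N, with CALB2 called higher in bIP and in N. The 5 loci of choroid plexus and hem summed to 191.0 to 198.5 CPM in aRG, 126.5 to 136.0 in bIP and 113.0 to 114.8 in N. The 5 mesenchyme and vessel loci summed to 146.9 to 176.5 CPM in aRG, 126.7 to 133.2 in bIP and 89.9 to 115.4 in N. The 2 microglia loci summed to 7.6 to 7.7 CPM in aRG, 13.7 to 15.3 in bIP and 10.6 to 12.5 in N, with CSF1R called higher in bIP and in N and CX3CR1 under the filter. The part of these markers in the results below was not tested, and in sorted bulk samples fewer cells of a type and less open chromatin per cell cannot be told apart.

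After a filter on low counts, 268 of the 278 member regions and 58 member loci were tested, and the locus of SSTR4, a somatostatin receptor, did not pass the filter. A region or locus was called at an adjusted p under 0.05 in edgeR's quasi-likelihood test, adjusted by the Benjamini-Hochberg method over all regions or loci of the table. Between bIP and aRG, 134 member regions (50.0%) were called against 47.2% of all regions, 81 of them higher (24.5% of all were) and 53 lower in bIP (22.6% of all). Between N and bIP, 125 member regions (46.6%) were called against 47.6% of all, 54 higher (25.0% of all) and 71 lower in N (22.6% of all). Between N and aRG, 178 (66.4%) were called against 69.0% of all, 93 higher (37.2% of all) and 85 lower in N (31.7% of all). The shares of regions called were thus near those of the whole table in each comparison. With all 4 populations tested jointly, 190 member regions (70.9%) were called against 73.5% of all.

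Counting both directions together, the shares of loci called were also near the background. Between bIP and aRG, 24 of 58 loci (41.4%) were called against 40.3% of all loci, 19 higher (21.9% of all) and 5 lower in bIP (18.5% of all). A larger share of the 58 loci was called higher in bIP, and a smaller share lower, than of all loci. That difference was not tested. The median log2 fold change over the 58 loci was 0.33, against 0.00 over all loci tested. Without aRG library 2, the number called was 13. Between N and bIP, 25 loci (43.1%) were called against 39.9% of all, 12 higher (20.5% of all) and 13 lower in N (19.4% of all). The number was 16 without N library 2 and 15 without bIP library 2. Between N and aRG, 34 loci (58.6%) were called against 60.8% of all, 21 higher (32.7% of all) and 13 lower in N (28.1% of all). When each of the 8 libraries was left out in turn, 11 of the 24, 13 of the 25 and 24 of the 34 loci were called each time. Called or not, 19 of 58 member loci (32.8%) had their highest mean in bIP, against 18.8% of all loci, and 21 (36.2%) in N, against 39.9%. Some of the 19, such as TAC1 and TRH, were called in no comparison. TAC3 was called higher in bIP than in aRG and higher in bIP than in N. No difference in these shares was tested.

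**Figure D1:**
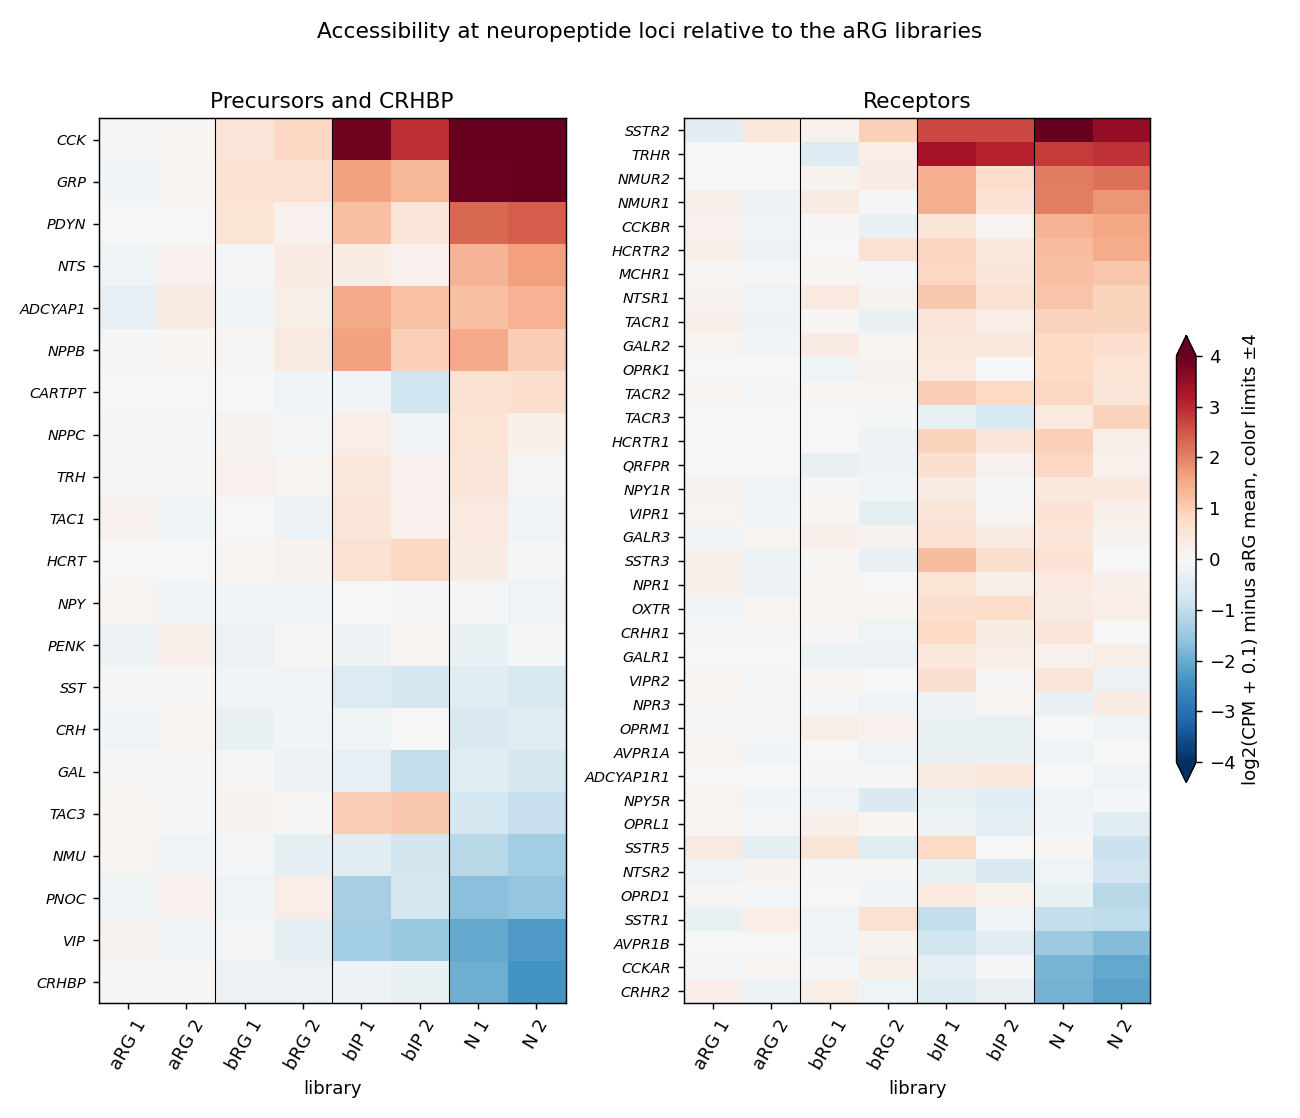
Level of each of the 58 tested loci in each of the 8 libraries (columns), as log2(CPM + 0.1) minus the mean of the 2 aRG libraries, with colors limited to ±4; precursors and CRHBP are on the left and receptors on the right, sorted by their level in N. The bRG columns stay close to the aRG columns, CCK, GRP, SSTR2 and TRHR are red in bIP and N, and CRHBP, VIP, CRHR2 and CCKAR are blue in N.

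Regions over gene starts and regions away from them were counted separately. A region at distance 0 was present for 48 genes, and 11 genes, among them CCK, GRP, PENK, TAC3 and SSTR2, had none. For PENK, as for SSTR2 below, 1 of 2 possible starts lies in a region that the table assigns to another gene. The PENK one, assigned to AC012349.1, measured 9.32 and 13.2 CPM in aRG, 7.45 and 6.79 in bIP and 7.85 and 7.62 in N. It was called in no comparison. Between bIP and aRG, 18 of 47 tested member regions at distance 0 (38.3%) were called, 6 higher and 12 lower in bIP. Of all regions at distance 0, 7.05% were higher and 35.2% lower. Off the start, 116 of 221 member regions (52.5%) were called, 75 higher and 41 lower in bIP. Of all regions off the start, 26.1% were higher and 21.4% lower. Over the whole table, 42.3% of regions at distance 0 and 47.6% of the others were called in that comparison. Between N and aRG, 22 of 47 member regions at distance 0 (46.8%) were called, 7 higher and 15 lower in N. Of all regions of that kind, 11.1% were higher and 41.5% lower, 52.6% called in all. Off the start, 156 of 221 member regions (70.6%) were called, 86 higher and 70 lower in N. Of all regions off the start, 39.7% were higher and 30.8% lower, 70.5% called in all. Between N and bIP, 12 of 47 member regions at distance 0 (25.5%) were called, 5 higher and 7 lower in N. Of all regions of that kind, 8.07% were higher and 14.8% lower, 22.9% called in all. Of the 221 other member regions, 113 (51.1%) were called, 49 higher and 64 lower in N. Of all regions off the start, 26.7% were higher and 23.3% lower, 49.9% called in all. In the joint test these shares were 51.1% at distance 0 against 52.2%, and 75.1% off the start against 75.4%. Over all regions at distance 0, calls were thus more often lower than higher in bIP and N than in aRG, as among the members, and no difference between the members and the rest was tested.

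**Figure D2:**
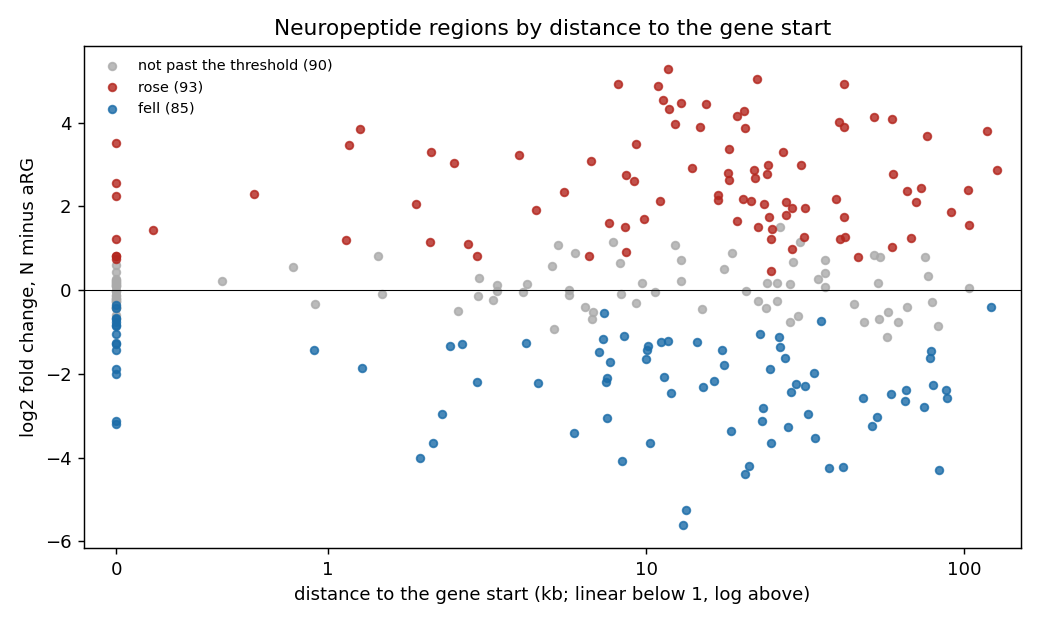
The log2 fold change between N and aRG (vertical axis) of the 268 tested regions by their distance to the gene start in kb (horizontal axis, linear below 1 kb and logarithmic above). Points are regions, colored by call: 93 were higher in N, 85 were lower and 90 did not pass the threshold, and regions at distance 0 span a narrower range than those beyond 10 kb.

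Among the 20 tested precursor loci, 7 were higher and 4 lower in bIP than in aRG (21.9% and 18.5% of all loci). In N against bIP 5 were higher and 6 lower (20.5% and 19.4% of all), and in N against aRG 7 were higher and 7 lower (32.7% and 28.1% of all). The loci of NPPC, NPY, PENK, TAC1 and TRH were called in no comparison.

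CCK encodes cholecystokinin, a peptide that is abundant in the cortex. Its locus measured 0.925 and 1.04 CPM in the aRG libraries, 1.46 and 1.8 in bRG, 15.7 and 8.32 in bIP and 24.8 and 26.4 in N. Both bIP libraries lay above all radial glia libraries, and both N libraries above bIP. The log2 fold change was 3.61 ± 0.35 (SE, adjusted p = 0.00015, edgeR) between bIP and aRG and 4.70 ± 0.35 (adjusted p = 1.3e-05) between N and aRG. Between N and bIP it was 1.09 ± 0.28 (adjusted p = 0.015). That last call ended without N library 2 (1.05, adjusted p = 0.059) and without bIP library 2 (0.64, adjusted p = 0.073), and over regions within 10 kb only the value was 2.52. Most of the signal lay in 1 region 11249 bases from the start, at chr3:42514993-42515867 in the chimpanzee build panTro6. That region measured 0.705 and 0.756 CPM in aRG, 11.3 and 6.26 in bIP and 16.8 and 17.4 in N. Its log2 fold change was 3.58 ± 0.36 (adjusted p = 1.6e-05) between bIP and aRG and 4.54 ± 0.36 (adjusted p = 6.1e-07) between N and aRG.

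GRP encodes gastrin-releasing peptide. Its locus measured 0.749 and 0.896 CPM in aRG, 1.28 and 1.31 in bRG, 2.68 and 2.23 in bIP and 14.0 and 14.3 in N. The populations did not overlap and N was the highest. The log2 fold change was 1.57 ± 0.26 (adjusted p = 0.0016, edgeR) between bIP and aRG, 2.52 ± 0.22 (adjusted p = 0.00028) between N and bIP and 4.10 ± 0.25 (adjusted p = 6.6e-06) between N and aRG.

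PDYN encodes prodynorphin, the precursor of the dynorphin opioid peptides. Its locus measured 7.67 and 7.5 CPM in aRG, 11.2 and 8.62 in bRG, 17.7 and 10.7 in bIP and 37.3 and 40.7 in N. The bIP and bRG libraries overlapped, and both N libraries were more than all others. The log2 fold change was 1.46 ± 0.24 (adjusted p = 0.0019, edgeR) between N and bIP and 2.36 ± 0.25 (adjusted p = 6.2e-05) between N and aRG. The region over the PDYN start (chr20:2416131-2417794) followed the locus, with 4.62 and 4.28 CPM in aRG, 7.09 and 4.11 in bIP and 19.2 and 23.0 in N.

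TAC3 encodes neurokinin B, and its locus was highest in bIP. It measured 20.2 and 18.3 CPM in aRG, 21.4 and 19.7 in bRG, 37.8 and 40.8 in bIP and 11.9 and 10.2 in N. No library of bIP or N overlapped with those of another population. The log2 fold change was 1.03 ± 0.14 (adjusted p = 0.00062, edgeR) between bIP and aRG and -1.83 ± 0.15 (adjusted p = 0.00026) between N and bIP. Regions of TAC3 differed among themselves. The region 651 bases from the start (chr12:32215201-32216537) measured 1.21 and 1.34 CPM in aRG, 11.3 and 10.5 in bIP and 6.33 and 6.25 in N, with a log2 fold change of 3.09 ± 0.28 (adjusted p = 1.1e-05) between bIP and aRG. The region at 2938 bases (chr12:32217483-32218478) measured 6.66 and 6.72 in aRG, 14.2 and 18 in bIP and 1.77 and 1.1 in N, and fell by 3.47 ± 0.29 (adjusted p = 1.5e-05) on the log2 scale between bIP and N. The region at 2136 bases went the other way from the start, from 9.4 and 7.77 CPM in aRG to 2.43 and 2.99 in bIP and 0.683 and 0.668 in N. One gene thus had a region highest in aRG and others highest in bIP.

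ADCYAP1, the precursor of the PACAP peptide, and NPPB, the precursor of B-type natriuretic peptide, were higher in bIP and in N than in aRG. The ADCYAP1 locus measured 3.13 and 5.0 CPM in aRG, 3.68 and 4.7 in bRG, 11.4 and 9.1 in bIP and 9.33 and 10.6 in N. Its log2 fold change was 1.34 ± 0.27 (adjusted p = 0.0049, edgeR) between bIP and aRG. The NPPB locus measured 3.74 and 4.2 CPM in aRG, 4.06 and 5.11 in bRG, 12.2 and 7.74 in bIP and 11.4 and 8.0 in N. In both genes bIP and N overlapped with each other and lay above the radial glia. The NPPB fold change between bIP and aRG was 1.33 ± 0.29 on the log2 scale (adjusted p = 0.0071), and the call ended without aRG library 1 (1.25, adjusted p = 0.055) or without bIP library 1 (0.96, adjusted p = 0.055).

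NTS, the neurotensin precursor, and CARTPT, the precursor of the CART peptides, were higher in N than in bIP. The NTS locus measured 6.12 and 7.83 CPM in aRG, 6.62 and 8.7 in bRG, 8.61 and 7.89 in bIP and 17.8 and 21.8 in N, a log2 fold change of 1.26 ± 0.22 (adjusted p = 0.0027, edgeR) between N and bIP. The aRG, bRG and bIP libraries overlapped and only N stood above them. The rise lay away from the gene: the region 19291 bases off measured 0.836 and 0.614 CPM in bIP and 5.0 and 8.25 in N, whereas the region over the NTS start measured 1.34 and 1.46 in bIP and 0.807 and 0.982 in N. With regions within 10 kb alone, the locus value between N and bIP was 0.34 (adjusted p = 0.29). The CARTPT locus measured 13.3 and 13.4 CPM in aRG, 13.6 and 12.3 in bRG, 12.5 and 7.69 in bIP and 20.3 and 21.9 in N. Its log2 fold change between N and bIP was 1.06 ± 0.23 (adjusted p = 0.0066), and 0.69 without bIP library 2.

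VIP, PNOC and SST had lower accessibility in bIP and N than in radial glia at one or more regions. The VIP locus, of the vasoactive intestinal peptide precursor, measured 16.5 and 13.5 CPM in aRG, 14.0 and 11.4 in bRG, 5.6 and 5.13 in bIP and 3.57 and 3.05 in N. Both radial glia populations lay above bIP, and bIP above N. The log2 fold change was -1.48 ± 0.21 (adjusted p = 0.00082, edgeR) between bIP and aRG, -2.37 over regions within 10 kb only, and -2.18 ± 0.22 (adjusted p = 4.8e-05) between N and aRG. The PNOC locus, of the nociceptin precursor, measured 57.4 and 72.4 CPM in aRG, 57.8 and 76.7 in bRG, 25.5 and 40.8 in bIP and 20.1 and 21.9 in N. Its log2 fold change was -1.63 ± 0.23 (adjusted p = 0.00032) between N and aRG and -0.97 ± 0.22 (adjusted p = 0.0087) between bIP and aRG, and the latter call ended without aRG library 2 (-0.79, adjusted p = 0.06). The region over the PNOC start measured 15.6 and 15.8 CPM in aRG, 4.72 and 8.25 in bIP and 1.99 and 1.61 in N. At SST, the somatostatin precursor, the region 28461 bases from the start (chr3:185722102-185723035) measured 2.12 and 2.06 CPM in aRG, 0.436 and 0.345 in bIP and 0.373 and 0.393 in N. The SST locus measured 11.9 and 12.5 CPM in aRG, 8.23 and 7.5 in bIP and 9.17 and 7.9 in N. It was called lower than in aRG in bIP (adjusted p = 0.022, edgeR) and in N (adjusted p = 0.034). Both locus calls ended within 10 kb and without either aRG library. The call in bIP also ended without either bIP library, and that in N without N library 2 or either bRG library. All 3 precursors are known from inhibitory neurons. Of the 8 marker loci of such neurons 5 were lower in N than in aRG, while GAD1, DLX5 and LHX6 were not called there. In bIP against aRG, 3 of the 8 were lower, 4 were not called and GAD1 was higher (adjusted p = 0.013, edgeR). A link between these markers and the precursors was not tested. The loci of NPY and TAC1, also known from inhibitory neurons, were called in no comparison.

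The NPY locus did not pass the threshold in any comparison, with 20.9 to 25.3 CPM over the 8 libraries, yet its regions changed in both directions. The region 23999 bases from the start measured 0.548 and 0.714 CPM in aRG, 1.27 and 1.31 in bIP and 3.38 and 5.3 in N. The region at 20409 bases measured 1.61 and 1.43 CPM in aRG, 0.909 and 0.422 in bIP and 0.124 and 0.0 in N. Both differed between N and aRG, with adjusted p = 2.6e-05 and adjusted p = 0.00017. The sum over the NPY locus therefore hides opposed regions.

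CRHBP encodes the protein that binds corticotropin-releasing hormone (CRH) outside the cell. Its locus measured 7.05 and 7.5 CPM in aRG, 6.21 and 6.13 in bRG, 6.26 and 6.0 in bIP and 1.8 and 1.31 in N. N stood apart from the other populations, with a log2 fold change of -1.96 ± 0.24 (adjusted p = 0.00053, edgeR) against bIP and -2.21 ± 0.24 (adjusted p = 6.1e-05) against aRG. Both of its regions, 27886 and 33562 bases from the start, were lower in N. The first (chr5:37848077-37848757) measured 2.47 and 2.6 CPM in aRG, 1.78 and 1.54 in bIP and 0.31 and 0.196 in N.

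**Figure D3:**
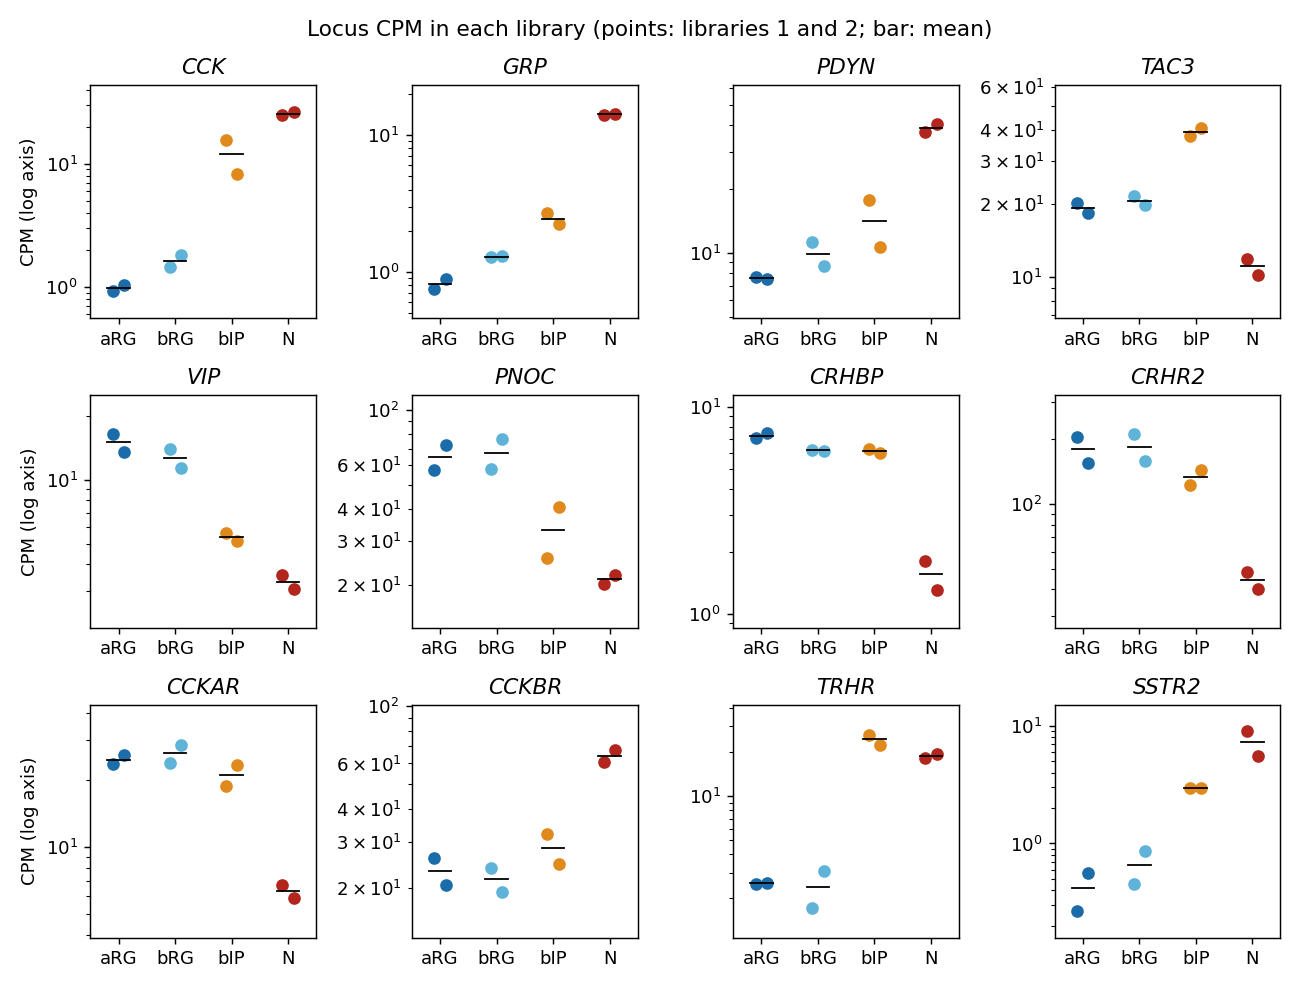
CPM of 12 loci (vertical axes, logarithmic) in the 4 populations (horizontal axes); points are libraries 1 and 2, and black bars their mean. CCK, GRP, PDYN, CCKBR and SSTR2 are highest in N, TAC3 and TRHR have their highest mean in bIP, and VIP, PNOC, CRHBP, CRHR2 and CCKAR are lowest in N.

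Of the 37 tested receptor loci, 12 were higher and 1 lower in bIP than in aRG, 7 were higher and 6 lower in N than in bIP, and 14 were higher and 5 lower in N than in aRG. The shares of all loci are those given for the precursors, 21.9% higher and 18.5% lower in the first comparison. Another 14 receptor loci were called in no comparison, among them both NPY receptors on the list, both VIP receptors, OPRM1, OPRL1 and AVPR1A.

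SSTR2, a receptor for somatostatin that inhibits adenylyl cyclase, had 1 region, 12330 bases from the start (chr17:66269916-66270844). The region measured 0.235 and 0.504 CPM in aRG, 0.383 and 0.714 in bRG, 2.29 and 2.34 in bIP and 7.2 and 4.48 in N. Radial glia libraries were the lowest, bIP came next and N was the highest, with no overlap between them, and aRG and bRG overlapped. As a locus it measured 0.264 and 0.566 CPM in aRG, 2.96 and 2.95 in bIP and 9.09 and 5.53 in N, on the scale of locus totals. The log2 fold change of the locus was 2.83 ± 0.47 (adjusted p = 0.0017, edgeR) between bIP and aRG and 4.14 ± 0.45 (adjusted p = 7.3e-05) between N and aRG. Between N and bIP it was 1.31 ± 0.36 (adjusted p = 0.019), and that call ended without N library 1 (0.90, adjusted p = 0.093), without bIP library 1 (1.31, adjusted p = 0.078) and without bIP library 2 (1.25, adjusted p = 0.1). The region overlapped a peak in the list of N only. The distance allows 2 positions for the gene start, and one of them lies in a region that the table assigns to AC097641.1 (chr17:66256797-66259097), which was looked up after the SSTR2 values were seen. That region measured 18.6 and 19.7 CPM in aRG, 16.7 and 17.2 in bRG, 30.7 and 28.2 in bIP and 29.4 and 30.1 in N. It was called higher in bIP than in aRG (adjusted p = 0.0013) and was not called between N and bIP (adjusted p = 0.94).

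The locus of SSTR3, another somatostatin receptor, measured 6.04 and 4.62 CPM in aRG, 5.45 and 4.29 in bRG, 12.6 and 8.27 in bIP and 7.96 and 5.38 in N. Its log2 fold change between bIP and aRG was 0.97 ± 0.30 (adjusted p = 0.03, edgeR). The locus is 1 region, which in the fit over regions gave 0.78 (adjusted p = 0.054) and was not called, and the locus call ended without aRG library 1 (1.17, adjusted p = 0.065), aRG library 2 (0.79, adjusted p = 0.17) or bIP library 1 (0.63, adjusted p = 0.21). At SSTR1, the region over the start measured 13.5 and 16.2 CPM in aRG and 13.6 and 13.6 in N. The SSTR1 region 13017 bases away (chr14:19238442-19240005) measured 12.4 and 22.3 CPM in aRG, 13.4 and 27.1 in bRG, 1.53 and 7.48 in bIP and 0.342 and 0.354 in N, and was lower in N than in aRG (adjusted p = 1.8e-05). The SSTR4 locus measured at most 0.176 CPM in any library.

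TRHR, the receptor of thyrotropin-releasing hormone, was higher in bIP and N than in radial glia. Its locus measured 2.51 and 2.55 CPM in aRG, 1.73 and 3.06 in bRG, 26.3 and 22.5 in bIP and 18.2 and 19.4 in N. The log2 fold change was 3.27 ± 0.27 (adjusted p = 8.8e-05, edgeR) between bIP and aRG and 2.89 ± 0.27 (adjusted p = 3.2e-05) between N and aRG. Its regions reached their highest level in different populations. The region over the TRHR start measured 0.862 and 0.966 CPM in aRG, 8.03 and 5.99 in bIP and 9.56 and 11.4 in N, and rose by 2.94 ± 0.31 (adjusted p = 2.4e-05) between aRG and bIP. The region at 21351 bases measured 0.274 and 0.546 in aRG, 5.85 and 5.14 in bIP and 1.86 and 1.69 in N, and rose by 3.74 ± 0.41 (adjusted p = 2.7e-05) between the same populations. The locus of TRH, the ligand, measured 8.81 to 12.8 CPM over all 8 libraries.

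The 2 cholecystokinin receptors had opposite patterns. The CCKAR locus measured 23.4 and 25.7 CPM in aRG, 23.8 and 28.7 in bRG, 18.7 and 23.3 in bIP and 6.7 and 5.91 in N. The CCKBR locus, of the form that predominates in the brain, measured 26.1 and 20.5 CPM in aRG, 23.9 and 19.2 in bRG, 32.3 and 24.7 in bIP and 60.8 and 67.7 in N. N was thus below all other libraries at CCKAR and above all of them at CCKBR. Against bIP, the log2 fold change in N was -1.73 ± 0.18 (adjusted p = 0.00037, edgeR) at CCKAR and 1.17 ± 0.18 (adjusted p = 0.0013) at CCKBR. With regions at any distance, the CCKAR value was -1.03. The region over the CCKAR start (chr4:25960718-25962700) fell from 8.21 and 12.8 CPM in bIP to 2.11 and 1.65 in N, by 2.47 ± 0.26 on the log2 scale (adjusted p = 4.1e-05). The CCKBR region at 12869 bases (chr11:6149596-6150834) measured 0.431 and 0.84 in aRG, 2.54 and 2.15 in bIP and 12.7 and 15.6 in N, with a log2 fold change of 4.47 ± 0.36 (adjusted p = 6.5e-07) between N and aRG.

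CRHR2, a receptor for CRH and the urocortins, had 14 regions, and most were lower in N. The locus measured 205 and 155 CPM in aRG, 212 and 158 in bRG, 122 and 144 in bIP and 48.3 and 40.3 in N. The log2 fold change was -1.59 ± 0.19 (adjusted p = 0.00052, edgeR) between N and bIP and -2.02 ± 0.19 (adjusted p = 3.4e-05) between N and aRG, and -0.61 and -0.88 when regions beyond 10 kb were left out. The region at the CRHR2 start itself (chr7:30769332-30771013) measured 27.9 and 26.7 CPM in aRG, 24.7 and 24.6 in bIP and 23.8 and 21.8 in N, and was not called. The region 21029 bases away (chr7:30747191-30749378) measured 53.5 and 45.0 in aRG, 52.3 and 44.7 in bRG, 19.2 and 30.6 in bIP and 2.86 and 2.44 in N. It fell by 4.21 ± 0.22 (adjusted p = 4.9e-08) between aRG and N and by 3.23 ± 0.21 (adjusted p = 4.2e-06) between bIP and N on the log2 scale. Regions of CRHR2 at 17312 and 23860 bases were highest in bIP. The region at 23860 bases (chr7:30794227-30794971) measured 0.392 and 0.462 CPM in aRG, 3.53 and 6.79 in bIP and 0.248 and 0.393 in N, and fell by 4.01 ± 0.47 (adjusted p = 6.2e-05) between bIP and N. The region at 17312 bases measured 2.04 and 1.97 CPM in aRG, 6.18 and 7.52 in bIP and 0.869 and 0.589 in N, and fell by 3.21 ± 0.32 (adjusted p = 3.4e-05) between bIP and N. At CRHR1, the other CRH receptor, the region at 8258 bases measured 2.04 and 1.39 CPM in aRG, 8.47 and 7.06 in bIP and 3.54 and 1.85 in N.

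TACR1, TACR2 and TACR3 encode the receptors of the tachykinins, and TACR1 and TACR3 each had a region over the start, while TACR2 had none. At the TACR1 start, the region measured 24.1 and 20.8 CPM in aRG, 33.7 and 27.3 in bIP and 39.8 and 39.4 in N, and was called higher in N than in aRG (adjusted p = 0.00019, edgeR). The TACR1 region 11658 bases away (chr2A:75365689-75366431) measured 0.313 and 0.294 CPM in aRG, 0.383 and 0.34 in bRG, 1.31 and 1.23 in bIP and 11.1 and 13.0 in N. It rose by 3.24 ± 0.29 (adjusted p = 2e-05, edgeR) between bIP and N. The TACR1 region at 87774 bases measured 4.23 and 4.66 in aRG, 1.42 and 1.46 in bIP and 1.15 and 0.511 in N, the opposite direction. The TACR3 locus, of the neurokinin B receptor, measured 27.3 and 27.1 CPM in aRG, 27.3 and 26.3 in bRG, 22.2 and 17.7 in bIP and 35.5 and 51.0 in N, a log2 fold change of 1.11 ± 0.18 (adjusted p = 0.002) between N and bIP. Without regions beyond 10 kb that value was 0.26 (adjusted p = 0.2). The TACR3 region at 41808 bases measured 1.2 and 0.96 in bIP and 8.41 and 15.5 in N, and the region at its start 21.5 and 21.5 in aRG, 14.8 and 11.8 in bIP and 15.5 and 16.3 in N. At TACR2, the receptor of neurokinin A, the region at 4504 bases was highest in bIP, with 0.783 and 0.588 CPM in aRG, 8.79 and 7.91 in bIP and 3.54 and 1.65 in N, whereas that at 13921 bases was highest in N, with 0.4 and 0.269 in bIP and 3.29 and 2.59 in N.

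NMUR1 and NMUR2 encode the receptors of neuromedin U. The NMUR1 locus measured 8.33 and 6.27 CPM in aRG, 9.02 and 6.95 in bRG, 19.5 and 10.8 in bIP and 30.2 and 25 in N, a log2 fold change of 1.92 ± 0.30 (adjusted p = 0.00058, edgeR) in N against aRG. The NMUR1 value for bIP against aRG was 1.05 ± 0.30 (adjusted p = 0.022), 1.88 within 10 kb, and the call ended without aRG library 2 (0.86, adjusted p = 0.13) or bIP library 1 (0.57, adjusted p = 0.17). The NMUR2 locus measured 8.06 and 7.73 CPM in aRG, 8.64 and 9.89 in bRG, 21.4 and 12.9 in bIP and 33.7 and 36.7 in N. Its log2 fold change was 1.12 ± 0.24 (adjusted p = 0.0059) between bIP and aRG, 0.70 without bIP library 1, and 2.15 ± 0.24 (adjusted p = 8.3e-05) between N and aRG. The NMUR2 direction depended on the window: with regions within 10 kb only, these values were -0.44 (adjusted p = 0.22) and -1.66 (adjusted p = 0.0006). The region at 22360 bases (chr5:130597061-130597938) rose from 0.588 and 0.924 CPM in aRG to 11.9 and 4.91 in bIP and 23.4 and 26.8 in N. The region at 7532 bases fell from 3.02 and 1.93 CPM in aRG to 0.436 and 0.422 in bIP and 0.31 and 0.275 in N. Regions at 19280 bases, with 0.157 and 0.546 CPM in aRG and 0.931 and 1.3 in N, and at 27541 bases, with 0.118 and 0.084 in aRG and 0.373 and 0.354 in N, were also called higher in N than in aRG. The region over the NMUR2 start was lower in N, with 3.29 and 3.4 CPM in aRG and 1.68 and 1.02 in N.

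**Figure D4:**
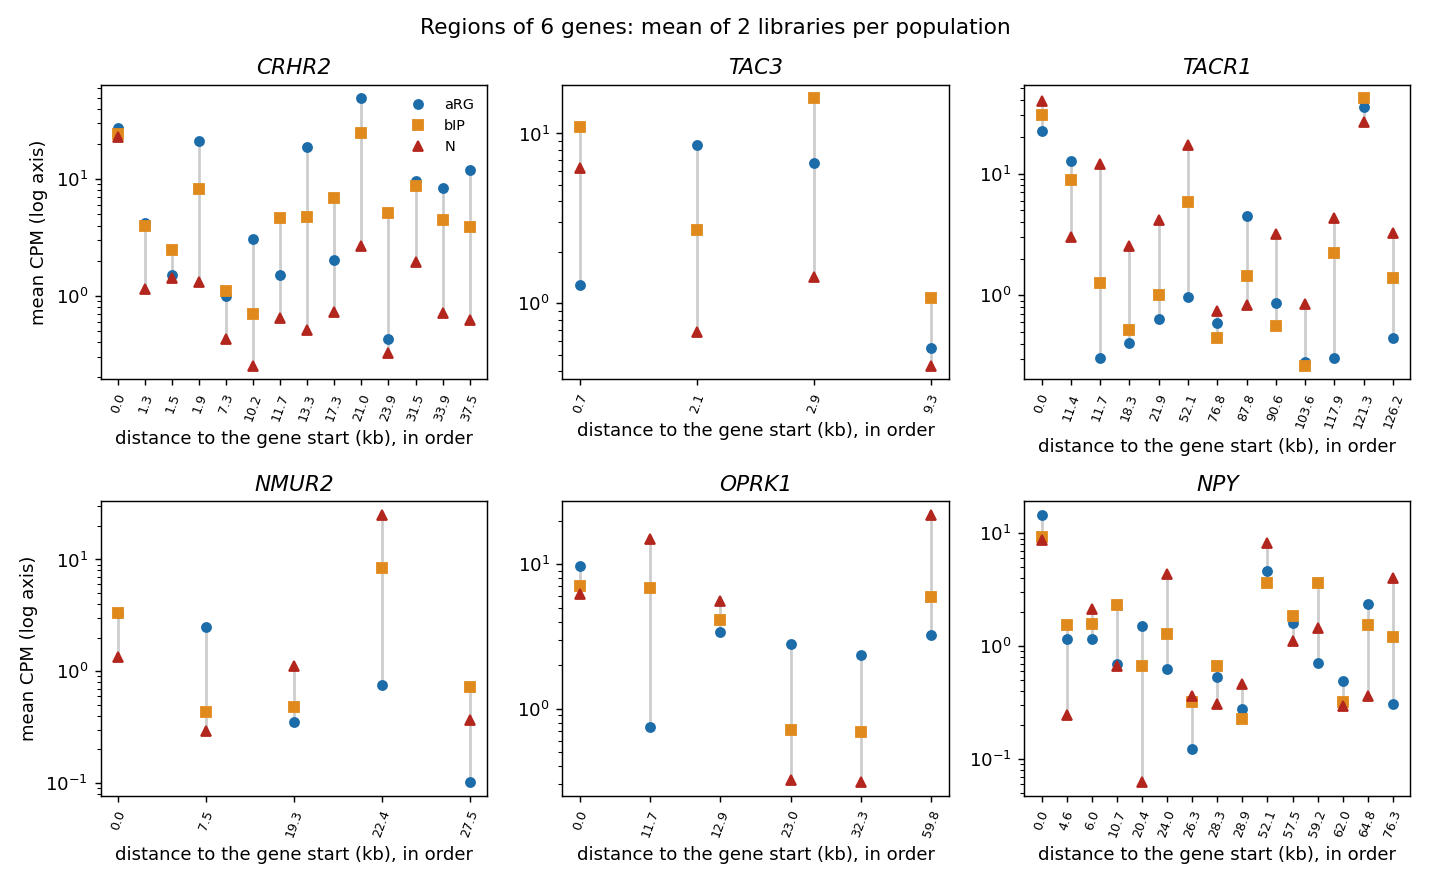
Mean CPM (vertical axes, logarithmic) in aRG, bIP and N of the tested regions of 6 genes, ordered along each horizontal axis by distance to the gene start in kb; grey lines join the lowest and highest of the 3 means of a region, each over 2 libraries. Within CRHR2, TAC3, TACR1, NMUR2, OPRK1 and NPY, regions differ in which population is highest.

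Of the opioid receptors, OPRK1 and OPRM1 also had regions called in opposite directions within a comparison, and OPRD1 did not. The OPRK1 region at 11743 bases, of the kappa receptor that dynorphins act on, measured 0.823 and 0.672 CPM in aRG, 0.883 and 1.09 in bRG, 8.29 and 5.3 in bIP and 16.5 and 13.5 in N. It rose by 3.17 ± 0.34 (adjusted p = 2.6e-05, edgeR) between aRG and bIP and by 4.32 ± 0.35 (adjusted p = 6.7e-07) between aRG and N. The OPRK1 region at 23047 bases measured 2.43 and 3.15 CPM in aRG, 0.472 and 0.96 in bIP and 0.248 and 0.393 in N, the opposite order. At OPRM1, the mu receptor, the region at 52968 bases (chr6:151513523-151515100) measured 20.1 and 16.8 CPM in aRG, 19.4 and 14.2 in bRG, 4.43 and 4.99 in bIP and 2.51 and 2.0 in N. The region at the OPRM1 start measured 4.7 and 6.13 CPM in aRG and 4.41 and 4.95 in N and was not called. At OPRD1, the delta receptor, the region at 22788 bases measured 47.6 and 45.7 CPM in aRG, 41.6 and 41.5 in bIP and 29.3 and 15.6 in N.

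Among the other receptors, MCHR1, the receptor of melanin-concentrating hormone, had a region 15362 bases away (chr22:23526277-23527410) with 0.627 and 1.26 CPM in aRG, 1.12 and 1.6 in bRG, 11.2 and 8.14 in bIP and 19.3 and 22.1 in N. It rose by 3.36 ± 0.35 (adjusted p = 2.1e-05, edgeR) between aRG and bIP and by 4.46 ± 0.36 (adjusted p = 6.5e-07) between aRG and N. The region over the start of NTSR1, a neurotensin receptor, measured 2.66 and 2.86 CPM in aRG, 12.9 and 8.1 in bIP and 16.6 and 15.8 in N. At NPR3, the natriuretic peptide clearance receptor, the region at 25714 bases measured 1.49 and 0.84 CPM in aRG, 4.8 and 8.29 in bIP and 0.931 and 1.02 in N, so bIP stood apart from both. The region over the start of AVPR1B, a vasopressin receptor, measured 11.9 and 12.3 CPM in aRG, 6.69 and 8.29 in bIP and 3.48 and 2.51 in N, and was lower in N than in aRG (adjusted p = 2.1e-05). At OXTR, the oxytocin receptor, the region at 15100 bases measured 3.8 and 4.83 CPM in aRG, 3.45 and 2.76 in bIP and 0.993 and 0.707 in N, while that at 5504 bases measured 0.157 and 0.336 in aRG, 2.11 and 1.84 in bIP and 1.52 and 0.982 in N.

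Some genes had regions called in opposite directions. In bIP against aRG, 19 of 58 genes with a tested region (32.8%) had at least 1 region called higher and 1 called lower, against 24.9% of all genes. In N against bIP there were 11 such genes (19.0% against 24.4%), and in N against aRG 22 (37.9% against 36.6%). Among genes with at least 2 tested regions the shares were 41.3% against 34.8%, 23.9% against 34.1% and 47.8% against 51.1% in the same order. The members had a median of 3.5 tested regions and all genes 3.0. The last group included TAC3, NPY, NTS, NMUR2, OPRK1, OPRM1, OXTR and the 3 tachykinin receptors.

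The 2 kinds of radial glia gave no calls among the members. Between bRG and aRG, edgeR called 0 of 268 regions and 0 of 58 loci, against 0.0% of all regions and 0.0% of all loci. DESeq2 also called 0 of the 268 regions and 0 of the 58 loci. At an unadjusted p under 0.05 there were 3 regions (1.12%, against 2.64% of all) and 1 locus (1.72% against 1.4%) in edgeR, and 2 regions (0.746% against 1.18%) and 0 loci (against 0.944%) in DESeq2. The locus was GRP, with a log2 fold change of 0.65 ± 0.27 (unadjusted p = 0.039, edgeR, adjusted p = 1.0). Locus values ran from -0.36 at NPY5R to 0.72 at CCK, so differences of the size seen at CCK or SSTR2 between bIP and aRG were not seen between bRG and aRG.

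The authors' consensus peak lists, 1 per population, gave a second view of the same libraries. A peak overlapped 128 of 278 member regions in aRG (46.0%, exact binomial 95% interval 40.1 to 52.1), 130 in bRG (46.8%, 40.8 to 52.8), 141 in bIP (50.7%, 44.7 to 56.7) and 118 in N (42.4%, 36.6 to 48.5). These intervals overlap, and they cover counting error only. Of the 278 regions, 64 lay under a peak in all 4 lists and 77 in none. Peaks in the N list alone covered 21 regions, among them regions of GRP, NTS, SSTR2, TACR1 and TACR3, and peaks in the bIP list alone covered 20, among them regions of CRHR2, TAC3, TACR2 and TRHR. At distance 0, 32 of 48 regions (66.7%) were in all 4 lists, against 32 of 230 others (13.9%). Peak overlap was counted for the members only, so none of these counts shows whether the members differ from other regions.

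Genes for making and storing peptides were compared from a separate list. Of its 16 tested loci, 10 were higher and 1 lower in bIP than in aRG (21.9% and 18.5% of all loci). In N against bIP, 4 were higher and 1 lower (20.5% and 19.4% of all), and in N against aRG 10 were higher and 4 lower (32.7% and 28.1% of all). The median log2 fold changes were 0.52, 0.13 and 0.54 in that order, against 0.00, 0.01 and 0.05 over all loci. Over regions within 10 kb only, 7 were called between bIP and aRG. PTPRN, a membrane protein of dense-core granules, measured 5.11 and 6.08 CPM in aRG, 27.8 and 18.6 in bIP and 43.6 and 40.2 in N. PAM, the enzyme that amidates peptide ends, measured 37.3 and 35.3 CPM in aRG, 78.9 and 71.7 in bIP and 97.7 and 105 in N. The CHGA locus, of the granule protein chromogranin A, measured 27.1 and 30.2 CPM in aRG, 111 and 77.6 in bIP and 102 and 71.2 in N. SCG5, a chaperone of the convertase PCSK2, went the other way after bIP, from 13.9 and 13.8 CPM there to 3.61 and 2.67 in N. PCSK1, a main prohormone convertase, ran from 27.4 to 39.3 CPM over all libraries and was not called.

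Other neuropeptide and receptor genes outside the 60 had 46 tested loci, of which 6 were higher and 9 lower in bIP than in aRG, and 13 higher and 16 lower in N than in aRG. Without aRG library 1 these calls numbered 9 and 18. Their median log2 fold changes were 0.05 and 0.06, against 0.00 and 0.05 over all loci. Of all loci, 21.9% were higher and 18.5% lower in bIP than in aRG, and 32.7% and 28.1% in N than in aRG. Genes of receptor signalling had 33 tested loci, of which 10 were higher and 4 lower in bIP than in aRG, and 12 higher and 7 lower in N than in aRG, with medians of 0.09 and 0.17. In the first comparison, 9 were called without aRG library 2, 8 without bIP library 1 and 6 within 10 kb.

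The loci most like SSTR2 over the 8 libraries, by Pearson's r of log2 CPM among 40354 loci, were MTOR-AS1 (0.996), RPEP5, LINC00907 and LPGAT1-AS1 (0.994 each) and AC011595.2 (0.993). Among the other neuropeptide loci the most similar were CCK (0.973), MCHR1 (0.935) and NMUR2 (0.935). The points are 4 populations with 2 libraries each, so these values describe a shared order of populations.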

How the data were processed

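The authors deposited whole-number read counts per region, unscaled, for 8 ATAC-seq libraries, with each region's nearest gene and a distance, per the file headers. One deposited consensus peak list per population held intervals, a score, a fold ratio over background and -log10 p and q values, per the file headers; only intervals and -log10 q were used. The submitters' processing notes name bcl2fastq 2.20.0, MACS2, panTro6 and hg38 without roles; the sources used here give neither the aligner nor the counting or the gene annotation. Coordinates are panTro6, counted from 1.

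Regions without a chimpanzee identifier (6725, total count 0) and 7 repeated ones were left out. Distances of the 221 member regions off the gene tested pointed to 1 position per gene in 221 (within 2 bases) and were read as distances to the gene start. Nearness does not show regulation. Counts were tested with edgeR 4.0.16 in R 4.3.3, per region (198227 tested) and per locus (40354 tested). The fit used TMM scaling, filterByExpr and a robust quasi-likelihood F-test, with 4 populations in 1 fit and 4 residual degrees of freedom. The code was also run on simulated data in which a small share of regions or loci was changed, in N alone. That run does not check the scaling where most regions or loci differ, as between N and aRG here. CPM use these scaled totals, separately for regions and loci. Alternatives were DESeq2 1.42.0, RLE factors, library totals, loess offsets, no filter, a replicate block, windows of 10 kb and any distance, each library left out, and stricter peak overlap.

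Members and lists were chosen with earlier results of these data known. Full statistics are given for up to 12 called loci with the largest change and 6 called regions with the smallest adjusted p per comparison, and for SSTR2; other regions were chosen after their values were seen, and carry levels and at most an adjusted p.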

Additional observations from a re-analysis of the deposited data

How the results depend on the processing

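Under alternatives, 51 named results other than those of SSTR2 had 775 values. Of these, 761 kept direction and side of the threshold, 12 lost the threshold and 2 changed sign. The 51 results were the called loci with the largest changes and the called regions with the smallest adjusted p. SSTR2 was not in this count. Its call between N and bIP ended with loess offsets and without N library 1, bIP library 1 or bIP library 2. Over all called loci, 14 of 24 (bIP against aRG), 16 of 25 (N against bIP) and 13 of 34 (N against aRG) lost the threshold or changed sign in at least 1 of 16 settings. The sign changes among the named results were at NMUR2, where regions within 10 kb gave -0.44 for bIP against aRG and -1.66 for N against aRG, since this window leaves out the region at 22360 bases. The 10 kb window also turned NMUR2 in N against bIP (1.04 to -1.22), ADCYAP1R1 in bIP against aRG (0.38 to -0.13), MCHR1 in N against bIP (0.48 to -0.03) and, in N against aRG, OPRK1 (0.67 to -0.52), GAL (-0.59 to 0.78), SSTR1 (-1.01 to 0.03) and TACR3 (0.67 to -0.24). The SSTR2 difference between N and bIP was 1.00 (adjusted p = 0.051) with loess offsets and 0.90 to 1.62 when 1 library was left out. When each library was left out in turn, the lone library of a population was taken to vary like the others. Called loci then numbered 13 to 25 for bIP against aRG, 15 to 23 for N against bIP and 25 to 34 for N against aRG, and called regions 103 to 139, 92 to 122 and 150 to 183, with 177 to 192 in the joint test. DESeq2 called 118, 108 and 160 regions and 25, 25 and 34 loci. With library totals, the median of all regions moved by 0.17 on the log2 scale in bIP against aRG and by 0.12 in N against aRG. Requiring a peak to cover at least 50% of a region lowered the share under a bIP peak to 44.6%. The cause was not tested where none is named.

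Replicate numbers are shared between populations but not stated to mark a batch or culture. Deviations of same-numbered libraries correlated at 0.12 to 0.31, with 2 pairs per comparison. With the replicate number as a block, 150, 148 and 194 regions and 29, 29 and 38 loci were called in the same order of comparisons, and 0 of either between bRG and aRG. With 2 libraries per population every spread has limited precision, and regions under about 1 CPM rest on few counts.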
